A study of Homo sapiens with 8 samples.

Results

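The snoRNA host genes are spliced transcripts, most of them long and noncoding, that carry small nucleolar RNAs, mostly in introns. GENCODE release 29 types SNHG32 as protein coding. They were chosen by name, as 30 listed symbols (the numbered SNHG genes, GAS5, ZFAS1, DANCR, EPB41L4A-AS1 and TAF1D) matched through their Ensembl IDs. Of these, 29 had a row with values among the 15469 loci with values, and TAF1D had none. Long noncoding RNA levels were measured in LM3 and HepG2, human liver cancer cell lines, in 4 groups of 2 libraries: LM3 with JQ1, LM3 with the DMSO vehicle, HepG2 with JQ1 and HepG2 with vehicle. JQ1 blocks the acetyl-lysine pockets of BET proteins, transcriptional coactivators that read acetylated histones. The labels state neither dose nor duration of treatment, and no genetic change is named for any group. Each value is an FPKM, the fragments of a transcript scaled to its length and to library size, and was deposited in a separate table for each line.

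Small nucleolar RNAs guide the chemical modification of ribosomal RNA. Box C/D snoRNAs (SNORD genes) direct methylation of the ribose, box H/ACA snoRNAs (SNORA genes) direct conversion of uridine to pseudouridine, and the related small Cajal body RNAs (SCARNA genes) act on spliceosomal RNAs. Most are cut out of introns after splicing, while the spliced exons of a noncoding host such as GAS5 are often short-lived. Many hosts begin with a terminal oligopyrimidine tract, the start also seen in ribosomal protein genes.

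RefSeq (GRCh38.p14) places 147 named small RNAs within the 29 hosts, 121 of them SNORD, 22 SNORA and 4 SCARNA, and 141 lie in an intron of at least 1 transcript of the host. SNHG14, the long transcript of the imprinted region on chromosome 15, holds 83 of them. GAS5 holds 11, SNHG1 holds 8, and 14 hosts hold a single one. None of the 147 had a row of its own (0 rows), so every value given here is that of a host locus. Fragments of a small RNA that lies within host exons may be counted in that value. SCARNA17, for example, is in an intron of 0 of the 2 SNHG22 transcripts that span it. Before the values, the small RNAs of hosts whose level was called with JQ1 are shown from GENCODE release 29, 5′ to 3′, as the DNA letters of the transcript. In the box C/D RNAs the capitals mark the C box core (GATGA) and the D box (CTGA). SNORD93 comes from SNHG26 and lies at chr7:22856613-22856686, plus strand. SNORD30 comes from SNHG1 and lies at chr11:62853663-62853732, minus strand. SNORD99 comes from SNHG12, which also carries SNORA61, SNORA44 and SNORA16A, and lies at chr1:28578749-28578822, minus strand.
SNORD93: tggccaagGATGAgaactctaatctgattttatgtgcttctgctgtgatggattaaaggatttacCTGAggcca
SNORD30: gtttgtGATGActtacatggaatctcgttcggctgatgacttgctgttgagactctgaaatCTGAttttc
SNORD99: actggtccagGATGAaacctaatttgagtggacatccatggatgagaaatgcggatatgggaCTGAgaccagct

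SNHG16 carries 3 copies of a single family, SNORD1A, SNORD1B and SNORD1C, at chr17:76561634-76561705, chr17:76561109-76561192 and chr17:76558791-76558868, all on the plus strand. They are shown because all 3 copies share a run of 17 bases, agttatccctgtctgaa, the longest common to them. In SNORD1A no GATGA was found in the first 20 bases, so only its D box is in capitals.
SNORD1A: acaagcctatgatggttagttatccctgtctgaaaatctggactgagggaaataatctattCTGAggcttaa
SNORD1B: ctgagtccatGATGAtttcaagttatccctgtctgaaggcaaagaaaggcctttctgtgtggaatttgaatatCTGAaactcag
SNORD1C: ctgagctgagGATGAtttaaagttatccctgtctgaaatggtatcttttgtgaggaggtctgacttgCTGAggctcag

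In the box H/ACA RNAs and the Cajal body RNA the capitals mark the ACA near the 3′ end. SNORA9 comes from SNHG15 (chr7:44985378-44985510, minus strand) and SNORA17A from SNHG7 (chr9:136726747-136726879, minus strand). SNORA71A and SNORA71C are copies from SNHG17 (chr20:38427309-38427442 and chr20:38429670-38429803, minus strand). With SNORA71D from the same host they carry the same base at 89 of 134 positions, counted without gaps. All 3 share a run of 20 bases that starts at a different position in SNORA71A than in SNORA71C, which the count does not allow for. SCARNA16 comes from SNHG20 (chr17:77089307-77089493, plus strand).
SNORA9: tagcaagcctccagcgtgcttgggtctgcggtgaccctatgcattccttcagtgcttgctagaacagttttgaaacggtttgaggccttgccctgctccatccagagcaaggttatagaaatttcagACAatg
SNORA17A: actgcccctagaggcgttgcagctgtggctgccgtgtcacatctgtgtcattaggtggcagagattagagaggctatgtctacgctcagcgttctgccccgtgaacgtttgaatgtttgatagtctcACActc
SNORA71A: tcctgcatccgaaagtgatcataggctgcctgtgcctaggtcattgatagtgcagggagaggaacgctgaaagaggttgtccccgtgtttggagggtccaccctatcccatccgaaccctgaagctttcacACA
SNORA71C: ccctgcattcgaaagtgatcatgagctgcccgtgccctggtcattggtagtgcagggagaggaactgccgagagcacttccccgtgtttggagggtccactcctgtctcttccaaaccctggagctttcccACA
SCARNA16: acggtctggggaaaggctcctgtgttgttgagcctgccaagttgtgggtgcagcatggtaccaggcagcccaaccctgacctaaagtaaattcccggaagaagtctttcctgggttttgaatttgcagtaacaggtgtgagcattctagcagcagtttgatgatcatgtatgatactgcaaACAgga

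The libraries held between 11230 and 12332 loci above 0, with FPKM summing to 29369 to 35742. Counted as ribosomal RNA and mitochondrial loci were 35 loci, picked by position alone. They lay on the mitochondrial chromosome, on scaffolds taken as ribosomal DNA, or within 50000 bases of a 5.8S ribosomal RNA gene. These loci held a larger share with JQ1 in both lines. The share was 21.2% and 22.8% in LM3 with JQ1 and 18.9% and 19.6% in LM3 with vehicle. It was 17.1% and 18.1% in HepG2 with JQ1 and 15.3% and 15.9% in HepG2 with vehicle. Nothing in the labels says that the 2 libraries of a group came from separate cultures, so each p reflects scatter among single libraries, part or all of it possibly technical. Of 10 liver lineage lncRNAs, 7 had values. H19 lay between 309.7 and 348 FPKM in LM3 and between 2038 and 2249 FPKM in HepG2, HULC between 0.50 and 0.80 FPKM in all 8 libraries, and HNF4A-AS1 was listed at 0 in every LM3 library. Of those tested, 1 of 3 was lower in LM3 and 2 of 4 in HepG2, and 0 were higher. CPS1-IT1 had 0.41 and 0.26 FPKM in LM3 with JQ1 and 1.34 and 1.41 FPKM in LM3 with vehicle (log2 fold change -1.17, adjusted p = 0.0119), and 1.33 and 1.22 FPKM in HepG2 with JQ1 and 6.84 and 6.79 FPKM in HepG2 with vehicle (-2.04, adjusted p = 0.00262). LINC01485 was lower in HepG2, at 0.28 and 0.46 FPKM with JQ1 and 0.98 and 0.94 FPKM with vehicle (-0.75, adjusted p = 0.0242). Their part in the host results was not tested. Coding liver markers had no values (0 of 6). Of 7 lncRNAs listed for other cell types, 6 had values and 1, MIR503HG of endothelium, was high enough to test, with no call in either line. The blood lncRNA MIR142HG was listed at 0 in every LM3 library and did not exceed 0.03 FPKM in HepG2.

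The host genes were abundant for lncRNAs. The median level with vehicle over the 28 tested hosts was 29.3 FPKM in LM3 and 36.0 FPKM in HepG2, against 1.33 and 1.26 FPKM over the Ensembl loci tested in LM3 and HepG2. Together the 29 hosts summed to between 1526 and 1699 FPKM per library. That sum was 4.84% and 4.73% of the FPKM of all loci in LM3 with JQ1 and 4.83% and 4.51% in LM3 with vehicle. It was 4.87% and 4.71% in HepG2 with JQ1 and 5.53% and 5.71% in HepG2 with vehicle, so that the groups overlapped in LM3 but not in HepG2. Computed outside ribosomal RNA and mitochondrial loci, the share was 5.88% and 5.75% in HepG2 with JQ1 and 6.53% and 6.79% in HepG2 with vehicle. In LM3 that share was 6.15% and 6.13% with JQ1 and 5.96% and 5.61% with vehicle. On this scale the groups did not overlap in either line, with JQ1 the higher group in LM3 and the lower in HepG2. SNHG29 and GAS5 alone made up 36.8% to 40.6% of the hosts' FPKM.

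SNHG29, a host of SNORD49A, SNORD49B and SNORD65, was the most abundant host in both lines, at 449.6 and 439 FPKM in LM3 with JQ1 and 451 and 413 FPKM in LM3 with vehicle. In HepG2 SNHG29 stood at 301 and 299 FPKM with JQ1 and at 312 and 323 FPKM with vehicle. The groups overlapped in LM3, and in HepG2 both JQ1 libraries were the lower ones. GAS5, named for its accumulation in growth-arrested cells, had 223 and 205 FPKM in LM3 with JQ1 and 200.1 and 202 FPKM in LM3 with vehicle. GAS5 had 289 and 294 FPKM in HepG2 with JQ1 and 313 and 319 FPKM in HepG2 with vehicle. ZFAS1, the antisense neighbour of ZNFX1 and host of the SNORD12 family, had 121 and 154 FPKM in LM3 with JQ1 and 128 and 139 FPKM in LM3 with vehicle, and 113 and 123 FPKM in HepG2 with JQ1 and 118 and 107 FPKM in HepG2 with vehicle, so that the groups overlapped in both lines. None of these 3 was called: the log2 fold changes in LM3 were 0.04 for SNHG29, 0.09 for GAS5 and 0.03 for ZFAS1, and those in HepG2 were -0.08, -0.12 and 0.07. GAS5 in HepG2 was called after quantile normalization (log2 fold change -0.41, adjusted p = 0.0424), against an adjusted p of 0.276 without it, and over all alternatives its adjusted p lay between 0.0424 and 0.521.

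**Figure D1:**
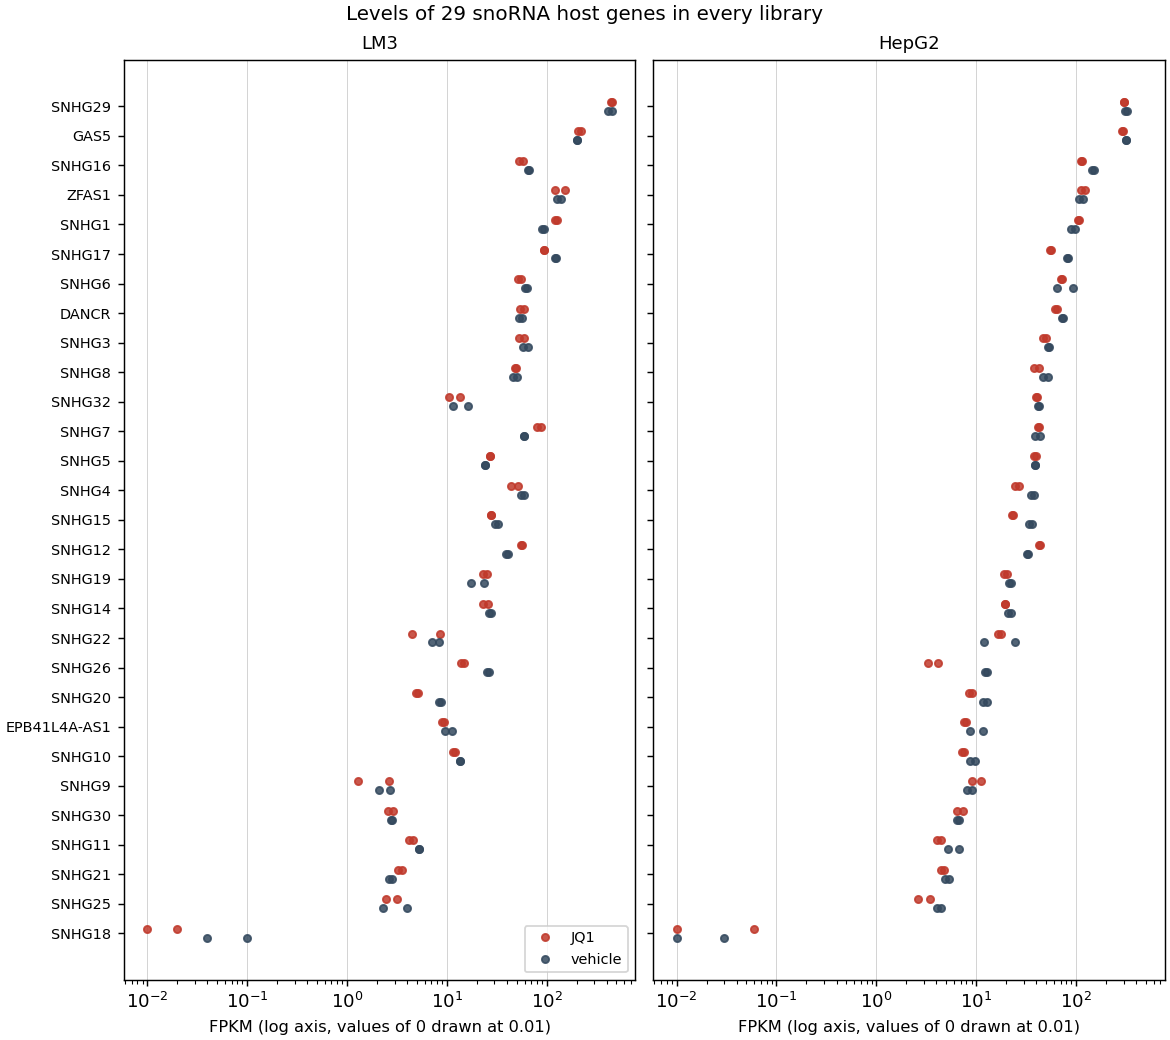
Level of each of the 29 snoRNA host genes in every library (FPKM, log axis), LM3 on the left and HepG2 on the right, with JQ1 libraries in red and vehicle libraries in dark blue. SNHG29 and GAS5 stand above 200 FPKM in all 8 libraries, and SNHG18 is at or under 0.10 FPKM in all of them.

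The order of the hosts was similar in both lines, with Pearson's r of 0.93 between the log2 vehicle levels over 28 hosts, a description only, since the points of a line share its libraries. The ratio of the LM3 to the HepG2 vehicle mean had a median of 0.918 over these hosts, beside 1.21 over all loci tested in both lines, and rests on tables that may have been normalized separately. Only SNHG26 was above a ratio of 2 among the 28, at 25.9 FPKM in LM3 and 12.5 FPKM in HepG2. SNHG9, SNHG32, SNHG22, SNHG30 and SNHG16 were the 5 hosts with a ratio under 0.5, from 0.279 for SNHG9 to 0.442 for SNHG16. In LM3 SNHG29 led, then GAS5, ZFAS1 and SNHG17. In HepG2 SNHG29 (318 ± 7.76 FPKM with vehicle, SD, n = 2) and GAS5 (316 ± 4.23 FPKM, n = 2) did not differ beyond their spread, and SNHG16 and ZFAS1 followed. SNHG18, the host of SNORD123, ran from 0 to 0.10 FPKM over the 8 libraries and was too low to test. The plot of the levels in every library gives all 29.

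JQ1 was compared with vehicle within each line by limma on log2(FPKM + 0.5), with Benjamini-Hochberg adjustment over all loci tested. In LM3, 6 of 28 tested hosts were called at an adjusted p under 0.05, 3 higher (SNHG1, SNHG7 and SNHG12) and 3 lower (SNHG17, SNHG20 and SNHG26). Over all 6474 loci tested in LM3, 23.3% were called, 7.92% higher and 15.4% lower. In HepG2, 7 of 28 hosts were called, SNHG12 higher and SNHG4, SNHG15, SNHG16, SNHG17, SNHG20 and SNHG26 lower. Over all 5906 loci tested in HepG2, 25.1% were called, 10.8% higher and 14.2% lower. The number of hosts called was thus near the background in both lines. The median log2 fold change of the hosts was -0.14 in LM3, where it was -0.08 over all loci and -0.16 over the other Ensembl loci tested. In HepG2 it was also -0.14, beside -0.0056 over all loci and -0.05 over the other Ensembl loci. These medians moved with the scaling. In LM3 the hosts' median was -0.06 with libraries centred on their medians (all loci -0.0003), -0.11 after quantile normalization (0.01) and -0.07 with ribosomal RNA and mitochondrial loci taken out of the scaling (-0.03). In HepG2 it was -0.10, -0.27 and -0.19 under the same scalings (all loci 0.03, 0.01 and -0.05). In bulk RNA, fewer cells that make a transcript and less of it per cell cannot be told apart.

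With 1 library left out, an arm holds a single library that is taken to vary like the other arm. In LM3 limma then called 0 of 6474 loci whichever library it was, with between 1605 and 2366 at an unadjusted p under 0.05, so that the loss of all host calls is not particular to the hosts. Among the hosts there were 6, 4, 10 and 9 hosts at an unadjusted p under 0.05 without vehicle replicate 1, vehicle replicate 2, JQ1 replicate 1 and JQ1 replicate 2. In HepG2, 454 and 519 of all 5906 loci were called without vehicle replicate 1 and vehicle replicate 2, with 3 hosts each time, and 0 loci without either JQ1 library, where 1789 and 1714 loci, 8 and 9 hosts among them, had an unadjusted p under 0.05. No called fold change turned its sign in any of these fits, and SNHG20 in LM3, for example, stayed between -0.73 and -0.66 and SNHG12 between 0.45 and 0.50. Without LM3 JQ1 replicate 1 the median over the hosts in LM3 was 0.0039. With ribosomal RNA and mitochondrial loci taken out of the scaling, 3 hosts were higher and 2 lower in LM3, and 1 higher and 6 lower in HepG2. Over all loci that scaling gave 605 higher and 850 lower of 6474 in LM3, and 578 and 952 of 5906 in HepG2. Without the filter on low values 3 hosts were called in HepG2, and 4 in LM3. Of all 15469 loci, 819 were then called in HepG2 and 825 in LM3.

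Counting libraries rather than tests, 6 hosts had both JQ1 libraries above both vehicle libraries in LM3 and 11 had both below, where all tested loci gave 27.0% above and 39.7% below. In HepG2, 3 hosts lay above and 19 below, where all tested loci gave 32.4% above and 33.9% below. Among Ensembl loci averaging 10 FPKM or more, a level that most hosts reach, 50.4% of 113 lay below in LM3 and 48.1% of 106 in HepG2. The hosts at that level are themselves part of these 113 and 106 loci. By sign alone, 17 of 28 hosts were negative in LM3 and 20 of 28 in HepG2. Over all loci tested, 3714 of 6474 were negative in LM3 and 2974 of 5906 in HepG2. Over the Ensembl loci tested other than hosts, 1305 of 2035 were negative in LM3 and 1062 of 1894 in HepG2.

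**Figure D2:**
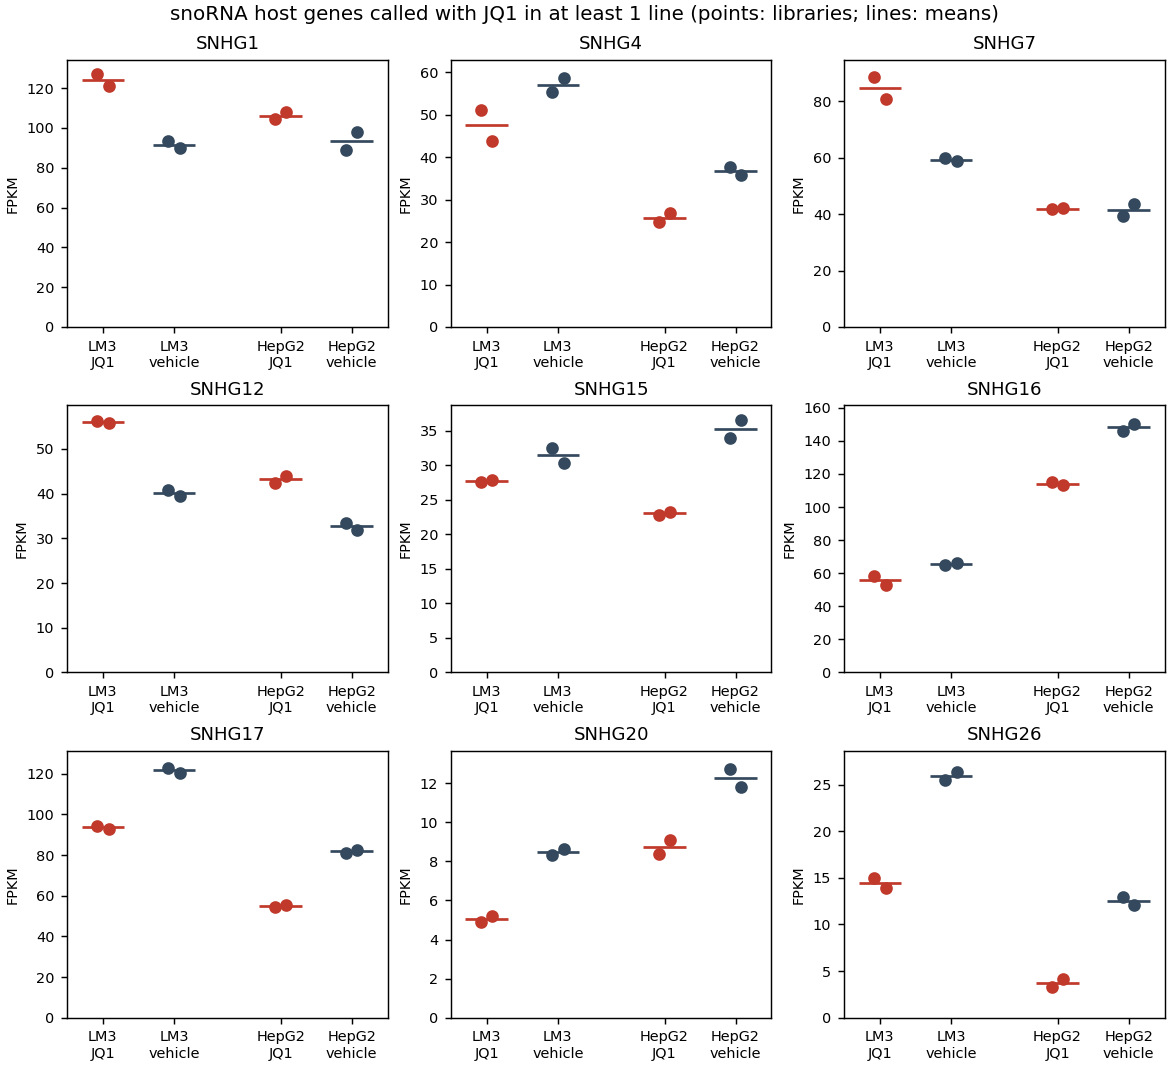
FPKM in every library (points) and group means (lines) of the 9 snoRNA host genes called in at least 1 line, with JQ1 in red left of vehicle in dark blue for LM3 and then HepG2. JQ1 points of SNHG12 lie above the vehicle points in both lines, and those of SNHG17, SNHG20 and SNHG26 lie below.

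Among hosts of box C/D snoRNAs, SNHG26 showed the widest difference. SNHG26 (ENSG00000228649, chr7:22854126-22872945, plus strand), the host of SNORD93 shown above, had 14.9 and 13.9 FPKM in LM3 with JQ1 and 25.5 and 26.4 FPKM in LM3 with vehicle. In HepG2 it had 3.30 and 4.13 FPKM with JQ1 and 12.9 and 12.1 FPKM with vehicle. Every JQ1 library was below every vehicle library of its line. The log2 fold change was -0.83 (SE 0.086, adjusted p = 0.0104) in LM3 and -1.64 (SE 0.12, adjusted p = 0.00615) in HepG2, and SNHG26 in HepG2 was the 1 host with a change of at least 2-fold. Over the alternative settings, leaving out a library included, the fold change ran from -0.88 to -0.74 in LM3, with adjusted p up to 0.108, and from -1.78 to -1.49 in HepG2, with adjusted p up to 0.0811. Without the filter on low values its adjusted p in HepG2 was 0.0501.

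SNHG16 (chr17:76557764-76565348, plus strand), which carries the SNORD1 copies, had 58.4 and 53.1 FPKM in LM3 with JQ1 and 64.7 and 66.4 FPKM in LM3 with vehicle. The HepG2 values were 115 and 113 FPKM with JQ1 and 146 and 150.4 FPKM with vehicle. The groups did not overlap in either line, and the call was made in HepG2 (log2 fold change -0.38, SE 0.068, adjusted p = 0.0236) but not in LM3 (-0.23, 95% interval -0.47 to 0.0053, adjusted p = 0.13). After quantile normalization the fold change in HepG2 was -0.59. A locus without an Ensembl ID spans SNHG16 on the same strand, so that both may count the same fragments. That locus had 2.92 FPKM in HepG2 with JQ1 and 4.89 FPKM in HepG2 with vehicle. Limma called it lower in HepG2 (log2 fold change -0.66, adjusted p = 0.0162). In LM3, at 1.96 FPKM with JQ1 and 2.26 FPKM with vehicle, it was not called (-0.20, adjusted p = 0.614).

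SNHG1 (chr11:62851984-62855953, minus strand), a host of 8 box C/D snoRNAs, had 127 and 121 FPKM in LM3 with JQ1 and 93.4 and 90.0 FPKM in LM3 with vehicle. HepG2 libraries gave 105 and 108 FPKM with JQ1 and 89.0 and 98.1 FPKM with vehicle. Both JQ1 libraries were above both vehicle libraries in each line. SNHG1 was called higher in LM3 (log2 fold change 0.43, SE 0.080, adjusted p = 0.0283), which did not hold after quantile normalization (adjusted p = 0.0699) and without the filter on low values (adjusted p = 0.0604), and was not called in HepG2 (0.18, 95% interval -0.03 to 0.40, adjusted p = 0.169). After quantile normalization its fold change in HepG2 was -0.02. A locus without an Ensembl ID covers all 3970 bases of SNHG1 on the same strand. Limma called that locus lower in HepG2, with 3.76 FPKM with JQ1 and 7.16 FPKM with vehicle (log2 fold change -0.84, adjusted p = 0.0238). In LM3 it was not called, with 2.04 FPKM with JQ1 and 1.60 FPKM with vehicle (0.30, adjusted p = 0.32). Over the alternatives the adjusted p of SNHG1 in LM3 lay between 0.0198 and 0.204.

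Among hosts of box H/ACA snoRNAs, SNHG17 was called lower in both lines. SNHG17 (chr20:38419638-38435409, minus strand), the host of the SNORA71 copies, had 94.3 and 93.1 FPKM in LM3 with JQ1 and 123 and 121 FPKM in LM3 with vehicle. Its values in HepG2 were 54.4 and 55.6 FPKM with JQ1 and 81.2 and 82.8 FPKM with vehicle. The JQ1 libraries were the lower ones in both lines and the 2 libraries of each group lay close together. The log2 fold change was -0.38 in LM3 (SE 0.075, adjusted p = 0.0334) and -0.57 in HepG2 (SE 0.066, adjusted p = 0.0103). In LM3 the call was lost under 6 of 9 alternatives that keep all libraries, with an adjusted p of 0.0545 with each library centred on its median, 0.11 after quantile normalization, 0.0584 with ribosomal RNA and mitochondrial loci taken out of the scaling, 0.0524 with the replicate block, 0.0509 without trend and robust fitting and 0.0646 without overlapping loci.

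SNHG15 (chr7:44983023-44986961, minus strand), the host of SNORA9, had 27.6 and 27.8 FPKM in LM3 with JQ1 and 32.5 and 30.4 FPKM in LM3 with vehicle. In HepG2 it had 22.8 and 23.3 FPKM with JQ1 and 34.0 and 36.5 FPKM with vehicle. Both JQ1 libraries were below both vehicle libraries in each line, by a wider gap in HepG2. SNHG15 was called in HepG2 (log2 fold change -0.60, SE 0.073, adjusted p = 0.0110) and not in LM3 (-0.18, 95% interval -0.40 to 0.05, adjusted p = 0.189).

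SNHG4 (chr5:139274102-139284899, plus strand), the host of SNORA74A and SNORA74D, had 51.1 and 43.9 FPKM in LM3 with JQ1 and 55.5 and 58.8 FPKM in LM3 with vehicle. In HepG2 SNHG4 had 24.7 and 26.8 FPKM with JQ1 and 37.7 and 35.7 FPKM with vehicle. The JQ1 libraries were again the lower ones in both lines. The call was made in HepG2 (log2 fold change -0.50, SE 0.078, adjusted p = 0.0176) and not in LM3 (-0.27, 95% interval -0.56 to 0.02, adjusted p = 0.147). Without the filter on low values the call in HepG2 was lost (adjusted p = 0.0768). SNHG4 shares 14.0% of its exon bases with MATR3, a coding gene on the same strand, so reads of either may be counted for the other.

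SNHG7 (chr9:136721366-136728184, minus strand), the host of SNORA17A and SNORA17B, had 88.5 and 80.8 FPKM in LM3 with JQ1 and 60.0 and 58.7 FPKM in LM3 with vehicle. In HepG2 it had 41.6 and 42.3 FPKM with JQ1 and 39.2 and 43.6 FPKM with vehicle. In LM3 both JQ1 libraries were above both vehicle libraries, and in HepG2 the groups overlapped. The log2 fold change was 0.51 in LM3 (SE 0.088, adjusted p = 0.0251), with an adjusted p of 0.08 without the filter on low values, and 0.02 in HepG2 (95% interval -0.20 to 0.24, adjusted p = 0.87). SNHG7 shares 25.2% of its exon bases with FAM69B on the opposite strand. Whether the counting used strand is not stated in the labels.

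SNHG12 (chr1:28578538-28583132, minus strand) carries SNORD99 and 3 box H/ACA snoRNAs and was the 1 host called higher in both lines. It had 56.2 and 55.8 FPKM in LM3 with JQ1 and 40.9 and 39.4 FPKM in LM3 with vehicle. HepG2 stood at 42.5 and 44.0 FPKM with JQ1 and 33.4 and 32.0 FPKM with vehicle. No JQ1 library reached down to a vehicle library of its line. The log2 fold change was 0.47 in LM3 (SE 0.079, adjusted p = 0.0230) and 0.40 in HepG2 (SE 0.069, adjusted p = 0.0216). In HepG2 the fold change was 0.26 after quantile normalization, and the call was lost without the filter on low values (adjusted p = 0.0561).

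Among the hosts of small Cajal body RNAs, SNHG20 was called lower in both lines. SNHG20 (chr17:77086716-77099902, plus strand), the host of SCARNA16, had 4.92 and 5.18 FPKM in LM3 with JQ1 and 8.33 and 8.65 FPKM in LM3 with vehicle. In HepG2 it had 8.39 and 9.07 FPKM with JQ1 and 12.7 and 11.8 FPKM with vehicle. Every JQ1 library was below every vehicle library of its line. The log2 fold change was -0.70 in LM3 (SE 0.084, adjusted p = 0.0123) and -0.47 in HepG2 (SE 0.084, adjusted p = 0.0232, and 0.0913 without the filter on low values). SNHG20 shares 7.56% of its exon bases with SEC14L1 on the same strand.

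The other 19 tested hosts were called in neither line. Their log2 fold changes ran from -0.29 (SNHG22) to 0.27 (SNHG21) in LM3 and from -0.44 (SNHG25) to 0.22 (SNHG9) in HepG2. By sign, 8 of the 19 were negative in both lines, 2 were positive in both and 9 had opposite signs. Among all hosts not called in a line, the 95% interval of the change lay within 2-fold for 20 of 22 in LM3 and for all 21 in HepG2, and SNHG9 (-1.10 to 0.54) and SNHG22 (-1.12 to 0.55) were the 2 exceptions in LM3. SNHG22 also had widely spread libraries in HepG2, at 16.7 and 17.7 FPKM with JQ1 and 24.2 and 11.99 FPKM with vehicle. SNHG10, the host of SCARNA13, SNHG11, the host of SNORA60 and SNORA71E, and SNHG25 lay at -0.29, -0.44 and -0.44 in HepG2, with adjusted p of 0.0856, 0.0867 and 0.0881. SNHG14 lay at -0.15 in LM3 and -0.13 in HepG2, SNHG3 at -0.13 in both, and SNHG5, the host of the SNORD50 pair, at 0.16 in LM3 and 0.0088 in HepG2. DANCR, named as an antagonist of differentiation, lay at 0.06 in LM3 and at -0.21 in HepG2 (adjusted p = 0.0972).

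**Figure D3:**
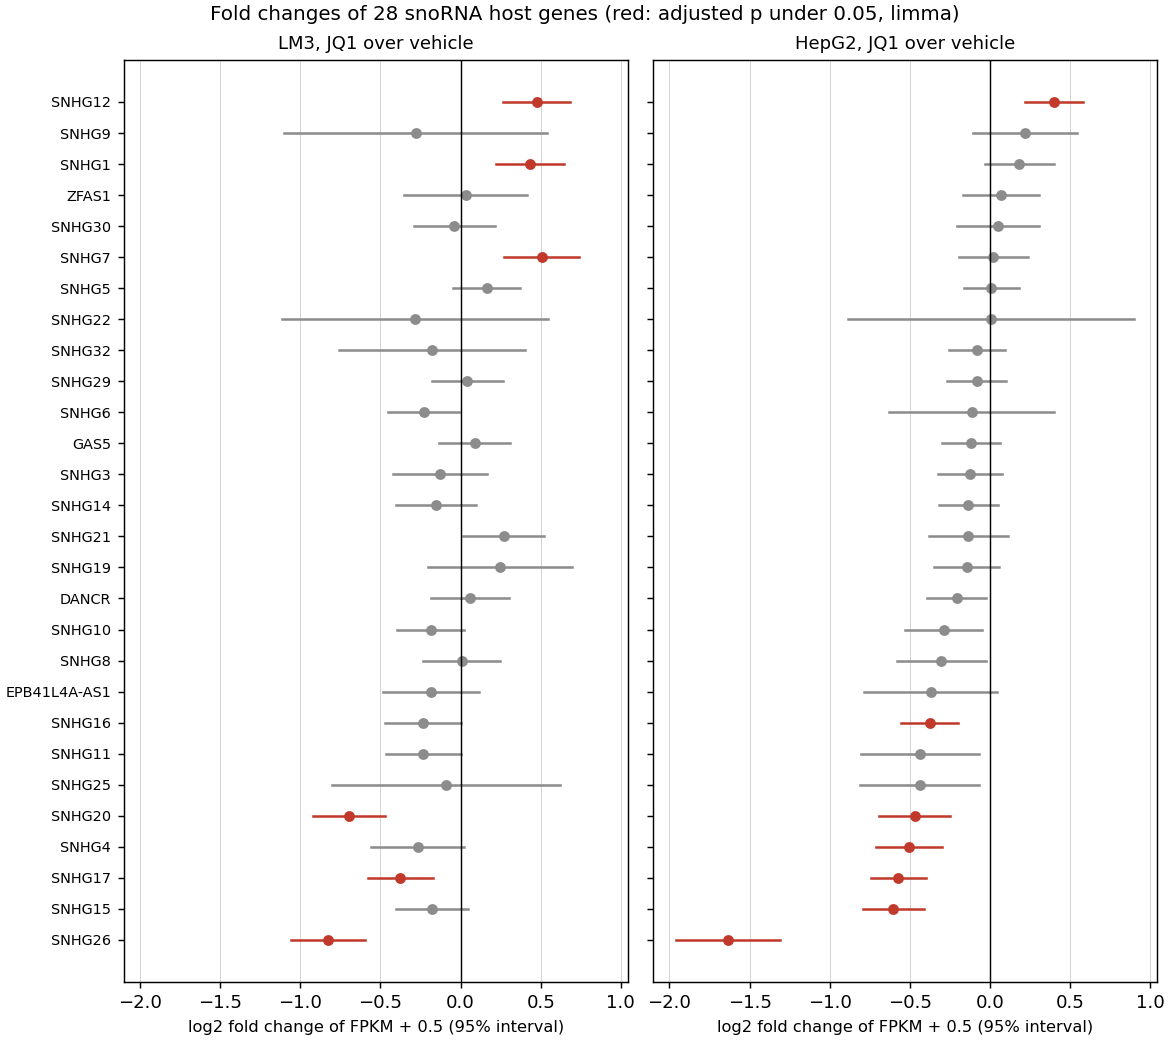
Log2 fold change of FPKM + 0.5, JQ1 over vehicle, with its 95% interval for the 28 tested snoRNA host genes, LM3 on the left and HepG2 on the right, in order of the HepG2 value and with red for an adjusted p under 0.05. SNHG26 stands farthest from 0 in both panels, at -0.83 in LM3 and -1.64 in HepG2.

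Set side by side, 4 hosts were called in both lines, each in the same direction, SNHG12 higher and SNHG17, SNHG20 and SNHG26 lower. Of the 5035 loci tested in both lines, 5.40% were called higher in both and 8.70% lower in both. Pearson's r between the fold changes of the lines over the 28 hosts was 0.71, and 0.61 without SNHG26, again a description, since the hosts of a line share its libraries. The difference of the responses, LM3 minus HepG2, was tested by limma, with all 8 libraries in a single fit. It was called for 0 of 28 hosts and for 11 of all 5035 loci (0.218%). At an unadjusted p under 0.05 were 604 of the 5035 loci, with 5 hosts among them. The 5 were SNHG26 at 0.81 (95% interval 0.44 to 1.18, adjusted p = 0.151), SNHG7 at 0.49 (0.20 to 0.77, adjusted p = 0.224), SNHG15 at 0.42 (0.18 to 0.67, adjusted p = 0.223), SNHG21 at 0.41 (0.10 to 0.71, adjusted p = 0.308) and DANCR at 0.27 (0.0039 to 0.53, adjusted p = 0.411). The interval lay within 2-fold for 24 of the 28 hosts. The calls of SNHG1 and SNHG7 in LM3 and of SNHG4, SNHG15 and SNHG16 in HepG2 are therefore not shown to belong to 1 line. The median difference over the hosts was 0.17, beside -0.07 over all loci. With centred libraries, quantile normalization and the scaling without ribosomal RNA and mitochondrial loci, 11, 9 and 11 hosts had an unadjusted p under 0.05, again with 0 called, and the hosts' median was 0.24, 0.28 and 0.29. Over all 5035 loci, 607, 589 and 598 had an unadjusted p under 0.05 with these scalings.

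**Figure D4:**
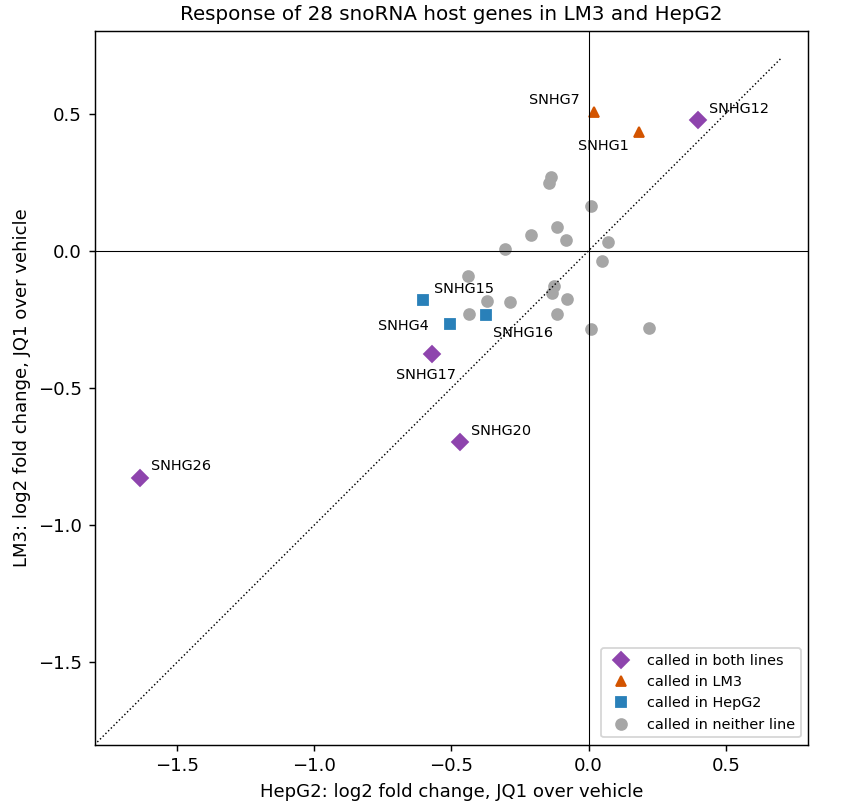
Log2 fold change, JQ1 over vehicle, of the 28 tested snoRNA host genes in LM3 (vertical) against HepG2 (horizontal), with the dotted line marking equal values and symbols giving the line in which a host was called. SNHG12 lies in the upper right, SNHG17, SNHG20 and SNHG26 lie in the lower left, and SNHG7 lies at 0.51 in LM3 and 0.02 in HepG2.

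Grouped by the small RNA they carry, with a host of several kinds counted under each, the 14 tested hosts of box C/D snoRNAs had a median log2 fold change of -0.0039 in LM3 and -0.10 in HepG2. The 13 hosts of box H/ACA snoRNAs had medians of -0.13 in LM3 and -0.30 in HepG2, and the 4 hosts of small Cajal body RNAs had -0.24 in LM3 and -0.21 in HepG2. In LM3, 2 C/D hosts were higher and 1 lower, 2 H/ACA hosts were higher and 1 lower, and 1 Cajal body host was lower. In HepG2, 1 C/D host was higher and 2 lower, 1 H/ACA host was higher and 3 lower, and 1 Cajal body host was lower. Over all loci tested, 7.92% were called higher and 15.4% lower in LM3, and 10.8% and 14.2% in HepG2. Differences between the kinds were not tested. The host higher in HepG2 is SNHG12 under both kinds, and hosts of 1 kind alone had 0 higher there, with 2 C/D and 3 H/ACA hosts lower. Hosts of more than 1 small RNA (15 tested) had a median of -0.09 in LM3 and -0.12 in HepG2, and those of a single one (13 tested) had -0.18 in LM3 and -0.21 in HepG2. Hosts of more than 1 were also more abundant, with a median vehicle level of 59.3 FPKM in LM3 and 42.4 FPKM in HepG2, against 13.5 and 12.5 FPKM in LM3 and HepG2 for hosts of a single one.

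**Figure D5:**
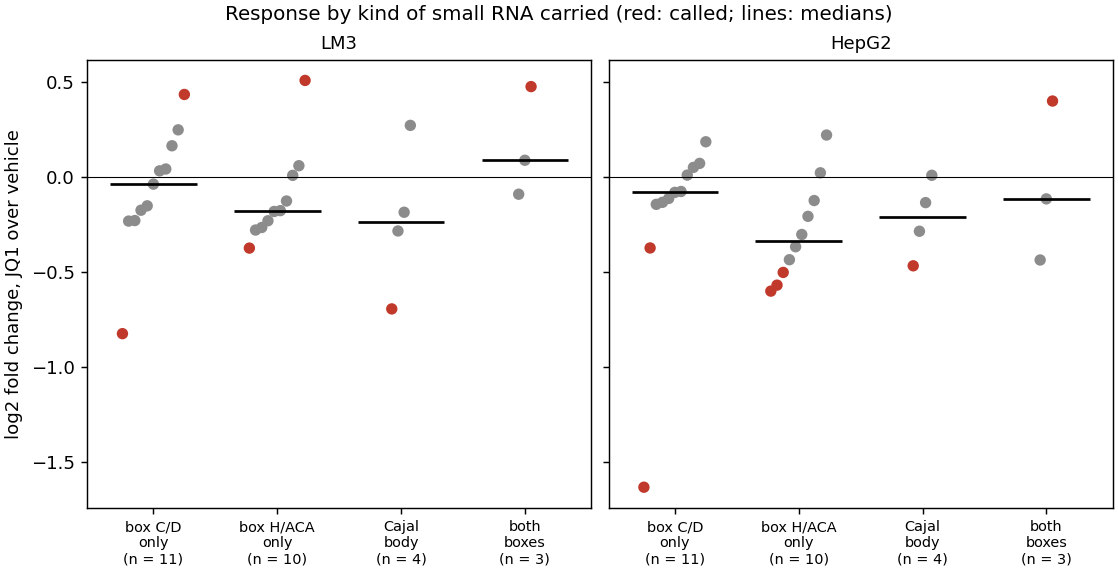
Log2 fold change, JQ1 over vehicle, of the 28 tested snoRNA host genes split by the small RNA carried, with LM3 on the left and HepG2 on the right, medians as lines and called hosts in red. The 10 hosts of box H/ACA snoRNAs only have a median of -0.18 in LM3 and -0.34 in HepG2, and the 11 hosts of box C/D snoRNAs only have -0.04 in LM3 and -0.08 in HepG2.

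RefSeq promoter windows, from 250 bases before to 50 after the annotated start, were found for 25 of the 29 hosts. A terminal oligopyrimidine start, read as C followed by at least 4 C or T within 3 bases of the start on the transcribed strand, was in 10 of 25 (40.0%), beside 13.0% of all 35116 windows. The 10 were SNHG4, SNHG5, SNHG7, SNHG12, SNHG17, SNHG18, SNHG19, SNHG32, ZFAS1 and DANCR, which hold hosts called higher, called lower and not called. The E-box CACGTG, on either strand, was in 2 of 25 (SNHG7 and SNHG30, 8.0%), beside 7.26% of all windows. TATAAA, on either strand, was in 4 of 25 (SNHG1, SNHG7, SNHG11 and SNHG19, 16.0%), beside 11.5%. Stretches of 180 bases that end 50 bases after the start are shown for a host higher in both lines (SNHG12, chr1:28581824-28582003, minus strand), one higher in LM3 (SNHG7, chr9:136728135-136728314, minus strand) and one lower in both lines (SNHG17, chr20:38435279-38435458, minus strand), from RefSeq on GRCh38.p14. Capitals mark the oligopyrimidine start and, in SNHG7, also CACGTG and TATAAA. The RefSeq start of SNHG12 lies 1259 bases inside the start given in the tables.
SNHG12: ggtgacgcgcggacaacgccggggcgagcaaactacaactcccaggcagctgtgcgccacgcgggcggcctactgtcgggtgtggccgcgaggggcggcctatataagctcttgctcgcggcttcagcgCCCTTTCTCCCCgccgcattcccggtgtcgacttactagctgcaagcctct
SNHG7: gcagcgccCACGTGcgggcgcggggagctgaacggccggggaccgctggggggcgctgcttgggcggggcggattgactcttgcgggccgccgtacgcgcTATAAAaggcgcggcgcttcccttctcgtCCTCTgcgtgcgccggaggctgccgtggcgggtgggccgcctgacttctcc
SNHG17: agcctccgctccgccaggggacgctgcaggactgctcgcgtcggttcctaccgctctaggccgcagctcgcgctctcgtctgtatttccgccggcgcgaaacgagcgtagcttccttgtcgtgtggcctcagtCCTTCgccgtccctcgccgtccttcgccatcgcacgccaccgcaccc

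Several hosts share their place in the genome with other loci, and their values are uncertain to that extent. On the same strand, 14 of the 29 overlapped another locus of the tables by at least 0.5 of the shorter, among them SNHG1, SNHG4, SNHG16 and SNHG20 of the called hosts, while SNHG7, SNHG12, SNHG15, SNHG17 and SNHG26 did not. With all such loci left out, 14 hosts were tested, and 3 were called in LM3 and 4 in HepG2. Over all loci, 1028 of 4902 were then called in LM3 and 1002 of 4428 in HepG2. SNHG32, in the HLA region, overlapped the Ensembl locus ENSG00000285565 over 5112 bases of its span. That locus had 39.3 FPKM in HepG2 with JQ1 and 20.4 FPKM in HepG2 with vehicle (log2 fold change 0.92, adjusted p = 0.00864), while SNHG32 itself had 40.1 ± 0.997 FPKM with JQ1 and 42.4 ± 0.403 FPKM with vehicle (SD, n = 2 each). In LM3 the overlapping locus averaged 8.88 FPKM with JQ1 and 14.6 FPKM with vehicle and was not called (-2.31, adjusted p = 0.383). That fold change compares means of logs and is much larger in size than these FPKM means give. It therefore reflects very unequal libraries within a group. Exon bases were shared with a coding gene in 15 hosts, on the same strand in 4 and on the opposite strand in 13. EPB41L4A-AS1 shared the most, 49.6% of its exon bases with EPB41L4A on the opposite strand, and SNHG16 shared 30.6% with AC015802.6, also on the opposite strand.

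Other hosts and small RNA loci were set beside the snoRNA hosts. Of the microRNA hosts (symbols of the form MIR...HG), 66 had values. In LM3, 28 were tested, with 1 higher and 5 lower and a median of -0.22. In HepG2, 27 were tested, with 2 higher and 7 lower and a median of -0.14. MIR100HG was lower in both lines, at -1.25 in LM3 (adjusted p = 0.0073) and -0.88 in HepG2 (adjusted p = 0.00836), and MIRLET7BHG was higher in both, at 0.49 in LM3 (adjusted p = 0.0380) and 0.70 in HepG2 (adjusted p = 0.0127). Of 12 other small RNA loci, 7 had values, and limma called 0 of 4 tested in LM3 and 0 of 5 in HepG2. MEG8, a host of snoRNAs in an imprinted region, was the 1 of them with an unadjusted p under 0.05, at -0.48 in LM3 (unadjusted p = 0.0385) and -0.56 in HepG2 (unadjusted p = 0.0267). The RNA of ribonuclease MRP, RMRP, had 144 and 154 FPKM in LM3 with JQ1 and 67.3 and 268 FPKM in LM3 with vehicle, so that the vehicle libraries lay on either side of both JQ1 libraries. None of 16 snoRNP and snoRNA processing proteins and none of 10 nonsense-mediated decay factors had values (0 each), so the proteins that pack snoRNAs or degrade host transcripts were not analysed here.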

How the data were processed

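Total RNA depleted of ribosomal RNA was sequenced in pairs of reads, per the labels' protocols. Per the file headers, the authors deposited FPKM values, with a table per line. The submitters' processing notes name Bowtie 0.12.2, hg19 and mm8, without a role. The depth and how fragments were counted were not given in the sources used, so no counting error is given. Positions follow GRCh38: against GENCODE release 29, which holds 8463 of the Ensembl IDs, chromosomes matched for 99.9%, starts for 83.9% and ends for 84.3%. Of 23161 loci listed, 7692 with a dash were left out.

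JQ1 was compared with vehicle within a line by limma 3.58.1 (R 4.3.3, trend and robust, two-sided, Benjamini-Hochberg over all loci tested, threshold 0.05) on log2(FPKM + 0.5). On that scale, fold changes of loci with low FPKM come out too small. Loci averaging under 0.5 FPKM in the 4 libraries of a line were left out. The difference of responses was fitted over all 8 libraries. The steps were tested on simulated data. Plots were made with matplotlib 3.10.9 and tables with pandas 2.3.3 and NumPy 2.4.6 in Python 3.11.15. Small RNAs within hosts were read from RefSeq, which gives no strand, and the strand of 133 of 147 was taken from GENCODE.

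The members, lists, tests and alternatives were chosen with earlier results of these data known. Hosts called in either line or among the 4 most abundant with vehicle in either line are given in every library, the others by range, and up to 4 called loci of each other list. Among the alternatives were other pseudocounts (0.1 and 1), no filter, 3 other scalings, a replicate block, limma without trend and robust fitting, no overlapping loci and each library left out in turn.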

Additional observations from a re-analysis of the deposited data

How the results depend on the processing

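Over 9 alternatives that keep all libraries, 202 values of 12 named hosts were compared with the reported ones: 181 kept their direction and side of the threshold, 14 lost the call, 1 gained it (GAS5 in HepG2 after quantile normalization) and 6 turned their sign, none of them called either way. After quantile normalization these were SNHG29 in LM3 (-0.20), ZFAS1 in LM3 (-0.10) and in HepG2 (-0.27), SNHG1 in HepG2 (-0.016) and SNHG7 in HepG2 (-0.13), the last also with the scaling without ribosomal RNA and mitochondrial loci (-0.036). Leaving out 1 library turned 5 further values, also uncalled: SNHG29 in LM3 lay between -0.022 and 0.10, ZFAS1 between -0.14 and 0.20 in LM3 and between -0.0037 and 0.14 in HepG2, and SNHG7 in HepG2 between -0.056 and 0.098. Without the filter on low values, calls over all loci numbered 825 in LM3 and 819 in HepG2 and host calls 3 in HepG2, where more loci were tested. Without overlapping loci, where fewer were tested, 3 hosts were called in LM3 and 4 in HepG2. Over all loci, 1028 of 4902 were then called in LM3 and 1002 of 4428 in HepG2. Leaving out 1 library left 0 calls over all loci and 0 host calls in LM3 whichever it was, and 0 to 519 calls over all loci and 0 to 3 host calls in HepG2. The share of calls that were higher in LM3, 34.0% as reported (513 higher, 998 lower), was 47.6% (700 and 770) once libraries were centred on their medians and 49.4% (715 and 732) after quantile normalization. For the difference of responses the count over all loci, 11 as reported, was 7 with a pseudocount of 0.1, 19 with a pseudocount of 1, 98 without the filter, 20 with centred libraries, 5 after quantile normalization, 0 without overlapping loci (390 at an unadjusted p under 0.05) and 0 to 3 without 1 library, and the cause was not tested. With the replicate block, 5 hosts were called in LM3 and 8 in HepG2, beside 1215 of 6474 and 1453 of 5906 over all loci. With that block the limma call of SNHG16 in HepG2 was lost (adjusted p = 0.0579). The difference of responses had 0 calls with it (505 at an unadjusted p under 0.05). The labels do not say that equal replicate numbers pair samples, and the correlation of same-numbered deviations was 0.135 in LM3 and -0.0345 in HepG2. With FPKM alone, the depth behind low hosts such as SNHG18 is unknown.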
